A study of Mus musculus with 2 samples.

Results

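The genes described here are the receptors for the constant part of immunoglobulin G and their signalling adaptor in macrophages of the infarcted mouse heart. The 6 members were chosen by symbol: Fcgr1, Fcgr3, Fcgr4, Fcgr2b, Fcer1g and Fcgrt. All 6 were found among the 23284 genes of the deposited table. RNA was sequenced from Ly6Chi macrophages (1 library) and from Ly6Clo macrophages (1 library), both taken from C57BL/6 mice whose left anterior descending coronary artery had been ligated and both collected on day 3 after infarction. The groups share the operation, strain, tissue and day, and differ in the surface level of Ly6C, a marker that is high on monocytes newly arrived from the blood. Whether cells of several animals were pooled, and how the gates were set, is not given in the sources used here.

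Each gene is described by the authors' signed statistic between the libraries and the rank of its size. How the statistic depends on a gene's abundance is not known, so a larger size is not read as a larger fold change. Neither sign is tied to a population by any label, and the values per library were not analysed here. The sides are therefore called negative and positive, with Ly6c2, which encodes the Ly6C antigen, as a landmark at -1.78 in the authors' deposited table. With 1 library per population there is no spread between replicates, so no difference below carries a test. The labelled cell type could not be checked against the level of its markers, since levels were not analysed here.

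Fc gamma receptors let a macrophage bind particles and complexes coated with IgG. Fcgr1 encodes the high-affinity receptor, which can hold single IgG molecules, while Fcgr3 and Fcgr4 encode low- and intermediate-affinity receptors that respond to complexes. These activating receptors signal through the common gamma chain, the product of Fcer1g, whose immunoreceptor tyrosine-based activation motif (ITAM) recruits the kinase Syk. Fcgr2b encodes the inhibitory receptor, whose tail carries an inhibitory motif (ITIM) that recruits the phosphatase SHIP1. Fcgrt encodes FcRn, which pairs with beta-2 microglobulin and returns IgG and albumin from endosomes to the surface instead of letting them be degraded.

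The opposed signalling parts of the family are short, and their coding DNA is shown because the members below are ordered by them. In each, the codons of the tyrosines that become phosphorylated are in capitals. The activation motif spans codons 65 to 79 of 86 in Fcer1g and lies in exons 4 and 5 of 5, at chr1:171230067-171230072 and chr1:171229889-171229927 on mm10, minus strand. The inhibitory motif spans codons 317 to 322 of 340 in Fcgr2b and lies in exon 8 of 8, at chr1:170961071-170961088, minus strand.
Fcer1g activation motif: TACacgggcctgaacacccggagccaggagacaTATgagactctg
Fcgr2b inhibitory motif: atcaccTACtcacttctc

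All 3 activating receptor genes and the gene of their adaptor lay on the negative side, and the inhibitory receptor gene and Fcgrt on the positive side. Of all 23284 genes in the table, 29.6% had a negative statistic, 40.4% a positive one, and 6982 genes stood at exactly 0. The positive share includes 841 genes tied at the smallest positive value, 2.42e-06. No member stood at 0, and among genes with a value other than 0 both shares are larger. This background holds for every count of signs below. Fcgr1, at chr3:96282909-96293969, stood at rank 388 with a statistic of -0.786 in the authors' deposited table. Its size exceeded that of 98.3% of all genes, and 45 genes in the whole table had a lower statistic. Fcgr4, at chr1:171018920-171029761, stood at -0.441, which is rank 1411 in the authors' deposited table. Fcgr3, at chr1:171051174-171064935, had the value nearest to 0 of the activating receptors, -0.207, which is rank 4393 in the authors' deposited table. These receptors therefore followed one direction with sizes that were far from equal.

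Fcer1g, at chr1:171229572-171234365, came in at -0.267, or rank 3065 in the authors' deposited table. The adaptor thus stood between Fcgr4 and Fcgr3, and 601 genes of the table lay between it and Fcgr3. In sorted bulk cells, fewer cells that express a receptor and less RNA of it per cell cannot be told apart.

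On the other side, Fcgr2b, at chr1:170958617-170976547, had a statistic of 0.121 and was ranked 7475 in the authors' deposited table. That is a small value: 67.9% of all genes were smaller in size, against 81.1% for Fcgr3. Fcgrt, at chr7:45092990-45103851, stood at 0.628 and was ranked 669 in the authors' deposited table, and its size exceeded that of 97.1% of all genes. The step from Fcgr3 to Fcgr2b, 0.328, held 17342 of the genes, since most genes lay near 0. No spread is known for any of these values, so neighbours in this order may not differ.

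At a size of 0.5, used here only to count, Fcgr1 was the single member at or below -0.5, where 0.988% of all genes lay, and Fcgrt the single member at or above 0.5, where 3.77% of all genes lay. The median of the 6 members was -0.237 against 0 over all genes, both computed from the authors' deposited table. It lay between Fcer1g and Fcgr3.

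**Figure D1:**
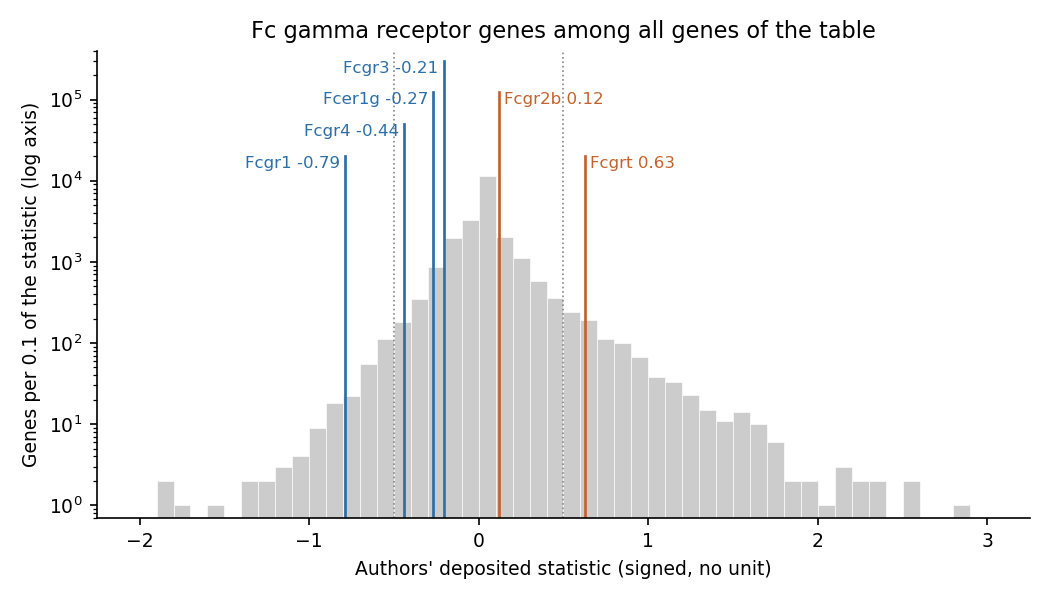
Number of genes (log axis) per 0.1 of the authors' deposited statistic over all 23284 genes, in grey, with the 6 members as vertical lines, blue where negative and orange where positive; line heights carry no value. Dotted lines mark -0.5 and 0.5, and Fcgr1 at -0.786 and Fcgrt at 0.628 are the members outside them.

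Fcgr2b and Fcgr3 lay on different sides although they are near copies over most of their extracellular part. Of 785 aligned coding bases, 87.1% were identical. Split into 12 blocks of 67 bases along the Fcgr3 coding sequence, 7 blocks in a row, from base 135 to 603, were at least 90% identical, while the blocks at either end ranged from 61.2% to 80.6%. The longest identical coding stretch had 129 bases. In Fcgr2b it runs through exons 3 and 4, at chr1:170967980-170968081 and chr1:170966674-170966700. In Fcgr3 it runs through exons 3 and 4 as well, at chr1:171057691-171057792 and chr1:171054167-171054193, also on the minus strand. It is printed because a read that falls wholly inside it could come from either gene.
Fcgr2b and Fcgr3 shared stretch: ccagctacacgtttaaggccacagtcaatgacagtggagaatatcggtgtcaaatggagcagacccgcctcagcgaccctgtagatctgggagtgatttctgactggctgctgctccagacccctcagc

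The reach of this overlap was measured with windows as long as a read might be, since the read length is not given in the sources used here. Of all windows of 50 bases in the coding sequence, 22% of those of Fcgr3 and 17% of those of Fcgr2b were found in the other gene. At 100 bases the shares were 6.24% and 4.76%. No window of the coding sequence or transcript of Fcgr1, Fcgr4, Fcer1g or Fcgrt, at 50, 75 or 100 bases, was found in a transcript of another gene. The whole transcript of Fcgr2b was less distinct: 436 of its 3495 windows of 50 bases, or 12.5%, were found elsewhere. Within its coding sequence those matches were to Fcgr3 alone, but outside it they were to many genes, and Cplx2 and Rab3c each held more of them than Fcgr3. Among the other 14 pairs of members the longest identical coding stretch was 8 to 14 bases. The counting program is not known, so the opposite signs of Fcgr2b and Fcgr3 are uncertain to the extent that reads were split between them. Fcgr2b and Fcgrt are also overlapped by annotated antisense genes, Gm38204 over 3175 bases and Gm45669 over 5331 bases, and strand handling is not given.

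**Figure D2:**
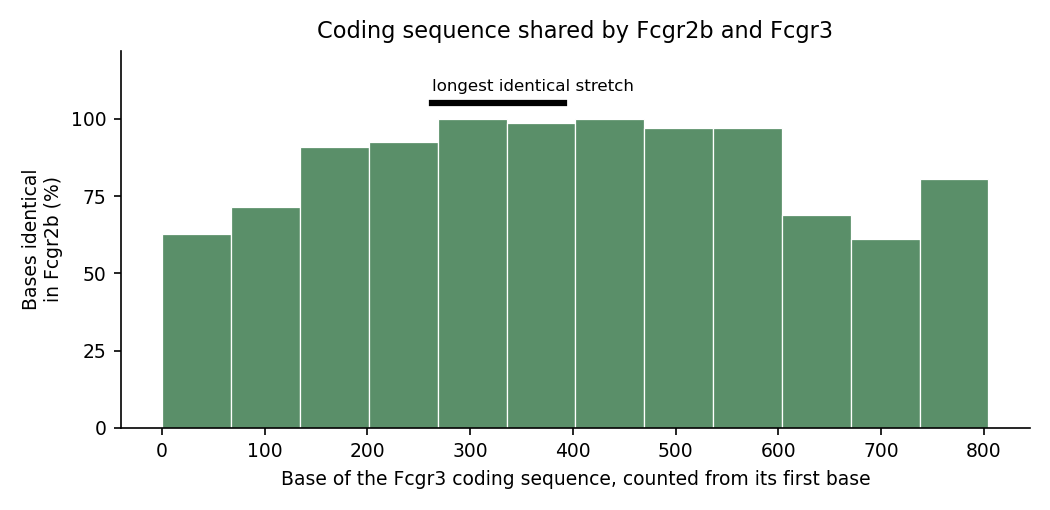
Percentage of bases of the Fcgr3 coding sequence that are identical in the aligned Fcgr2b coding sequence, in blocks of 67 bases counted from the first base of Fcgr3; the black bar marks the identical stretch of 129 bases. The 7 middle blocks are at or above 91% and the outer 5 are at or below 80.6%.

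On chromosome 1 the family sits in one stretch of 276 kb from the start of Fcgr2b to the end of Fcer1g. Fcgr2b lies 42.4 kb before Fcgr4, Fcgr4 lies 21.4 kb before Fcgr3, and Fcer1g follows after another 165 kb. Sign changed inside this cluster between the adjacent genes Fcgr2b and Fcgr4. The 15 other protein-coding genes of the table in or beside the cluster, taken 4 deep on either side, ran from -0.114 for Pcp4l1 to 0.558 for Adamts4, a matrix protease gene, in the authors' deposited table. Of these neighbours 4 were negative and 11 positive, and the 3 negative members of the cluster had lower values than every neighbour. The genes flanking Fcgr2b on its other side, the Fc receptor-like genes Fcrla and Fcrlb, had 0.163 and 0.000101 in the authors' deposited table.

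Away from that cluster, the genes on either side of Fcgr1 on chromosome 3 were at or near 0: Hist2h2bb and BC107364 were listed at 0 and the next pair, Hist2h3b and Hfe2, at 2.42e-06 and 0, in the authors' deposited table. Rcn3, which encodes a chaperone of the secretory pathway and ends 769 bases before Fcgrt, had 1.05 in the authors' deposited table. Fcgrt thus had a positive neighbour of larger size.

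**Figure D3:**
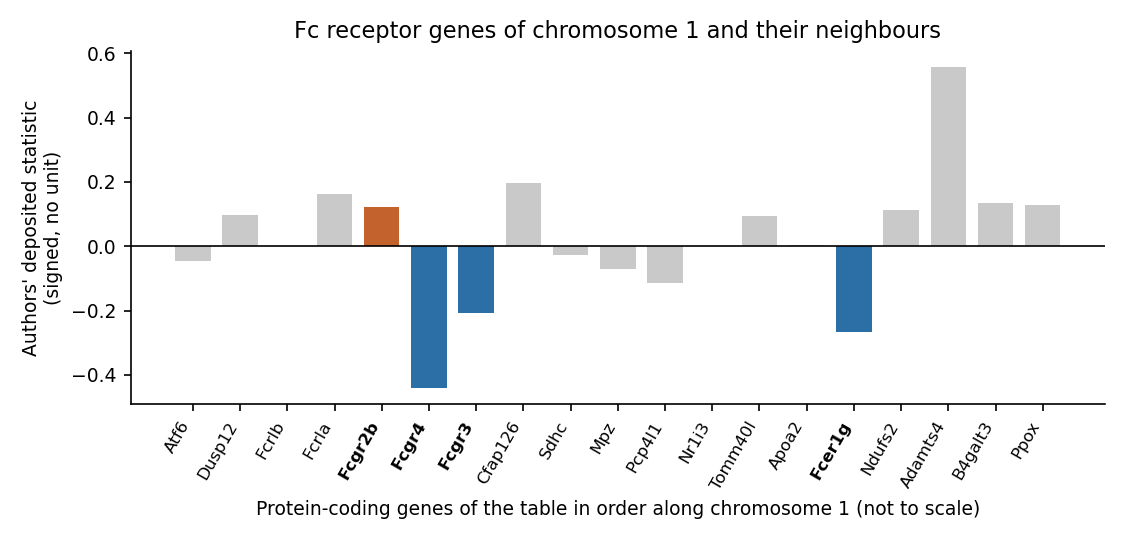
Authors' deposited statistic of the protein-coding genes in and beside the Fc receptor cluster, in their order along chromosome 1, with members in colour (blue negative, orange positive) and other genes in grey. Fcgr4, Fcgr3 and Fcer1g are the lowest bars, and Fcgr2b next to Fcgr4 is positive.

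The promoters of the activating receptor genes are shown because those genes lay on one side together. Fcer1g lay on that side too, but its promoter held none of the motifs marked below and is not printed. The sequences are from RefSeq on GRCm38.p6, which is mm10, and all 6 members matched. Each ends at the RefSeq start (for Fcgr3 the one farther upstream) or at the first annotated exon. Capitals mark matches, on either strand, to the core of the site for the myeloid factor PU.1 (GAGGAA, or TTCCTC on the other strand), to the interferon-gamma activated site (TTCNNNGAA) and to the interferon-stimulated element (GAAANNGAAA). The windows shown are chr3:96293970-96294119 on the minus strand, chr1:171059404-171059553 on the minus strand, chr1:171018776-171018919 on the plus strand and, for Fcgrt on the positive side, chr7:45103852-45103972 on the minus strand.
Fcgr1 promoter: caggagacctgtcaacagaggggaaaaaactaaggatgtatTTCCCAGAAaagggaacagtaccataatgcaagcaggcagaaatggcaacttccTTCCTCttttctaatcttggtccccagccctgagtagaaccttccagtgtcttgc
Fcgr3 promoter: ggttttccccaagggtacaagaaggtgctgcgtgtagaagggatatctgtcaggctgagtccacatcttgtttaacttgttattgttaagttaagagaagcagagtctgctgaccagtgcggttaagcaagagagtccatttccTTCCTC
Fcgr4 promoter: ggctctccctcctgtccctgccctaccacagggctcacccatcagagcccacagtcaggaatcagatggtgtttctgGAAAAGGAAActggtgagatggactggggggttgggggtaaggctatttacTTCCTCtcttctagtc
Fcgrt promoter: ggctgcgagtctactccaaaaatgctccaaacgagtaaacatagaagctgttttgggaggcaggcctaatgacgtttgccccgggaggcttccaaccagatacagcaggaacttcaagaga

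Over 300 bases, from 250 before to 50 after the start, the PU.1 core was found in Fcgr1, Fcgr3 and Fcgr4 and not in Fcgr2b, Fcer1g or Fcgrt. The same letters occur in 28.3% of the 32851 RefSeq promoter windows of that length. In Fcgr1 the match begins 55 bases before the start and in Fcgr4 22 bases before it. Fcgr3 has 2 RefSeq starts, and the match begins 6 or 15 bases before them. Both starts lie inside the GENCODE extent of Fcgr3, whose upstream end at chr1:171064935 was not scanned. The interferon-gamma activated site was found in Fcgr1 alone among the members, 109 bases before its start, and in 8.3% of all windows. The interferon-stimulated element was found in Fcgr4 alone, 73 bases before its start, and in 3.44% of all windows. These are matches of letters and say nothing about binding in these cells. For Fcgr2b, the bases before the RefSeq start, chr1:170976072-170976221, overlap annotated exons of Fcgr2b and Gm38204. They also lie inside its GENCODE extent, whose upstream end at chr1:170976547 was not scanned. The lack of a match in Fcgr2b therefore covers the RefSeq window only.

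The genes that act with the receptors did not follow them as a block. Among 30 genes of ITAM signalling, 12 were negative and 18 positive, and the median of 0.0330 computed from the authors' deposited table lay close to that of all genes. Syk, the kinase that docks on the activation motif, stood at -0.0538 in the authors' deposited table. Among the Src-family kinase genes, which phosphorylate the motif, Lyn had -0.147, Fgr 0.178 and Src 0.883 in the authors' deposited table. The adaptor gene Lat2 was the lowest of this list at -0.501 in the authors' deposited table. Malt1, a paracaspase downstream of Card9, had 0.647 and Lcp2, the adaptor SLP-76, had 0.552 in the authors' deposited table. Thus 3 of the 30 were at or above 0.5 and 1 at or below -0.5.

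The list of other immune receptor adaptors, named ITAM adaptor genes in the plot of the lists, held 6 genes, of which 4 lay on the side of Fcer1g, 1 was at 0 and 1 was positive, with a median of -0.129 computed from the authors' deposited table. Tyrobp, which encodes the adaptor DAP12 of myeloid cells, had -0.195, and Cd247, the zeta chain of lymphocytes, had -0.299 in the authors' deposited table. Hcst, at -0.0623 in the authors' deposited table, encodes DAP10, whose tail carries no activation motif. The B cell receptor adaptors Cd79b and Cd79a had -0.242 and 0.196 in the authors' deposited table.

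Inhibitory signalling was covered by 14 genes, of which 9 were positive and 5 negative; their median was 0.0621, computed from the authors' deposited table. Inpp5d, which encodes the phosphatase SHIP1 that acts downstream of Fcgr2b, had -0.0901 and Ptpn6, the phosphatase SHP-1, had 0.276 in the authors' deposited table. Sh2d1b1, an adaptor gene, was the highest at 0.712 and Dok2 the lowest at -0.352 in the authors' deposited table. The values of Fcgr2b and Inpp5d therefore had opposite signs.

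The machinery that closes a phagocytic cup was divided. It was covered by 30 genes, of which 18 were negative and 12 positive; the median was -0.0352 and the mean 0.0354, computed from the authors' deposited table. All 5 Arp2/3 complex genes of the list named Arpc were negative, from -0.320 for Arpc3 to -0.0943 for Arpc2, in the authors' deposited table. Myo10, a filopodial myosin gene, had 0.520 and Marcks, an actin-binding kinase substrate gene, had 0.536 in the authors' deposited table. Among 5 genes of the oxidative burst that follows uptake, Cybb, the catalytic subunit, had 0.409 and its partner Cyba -0.316 in the authors' deposited table.

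Of 13 genes of the FcRn partner and of recycling, 11 were negative, 1 was at 0 and 1 was positive. Over all genes 29.6% were negative, with 6982 of the 23284 at 0. The median of the list was -0.0703, computed from the authors' deposited table. None of the 11 was at or below -0.5, and 5 of them, Myo5b, Rab4a, Rab25, Rab11b and Rab11fip5, lay at -0.0703 or nearer to 0 in the authors' deposited table. B2m, the light chain without which FcRn does not reach the surface, had -0.238 and the sorting nexin gene Snx4 was the lowest at -0.301 in the authors' deposited table. Rab11fip1, an effector of recycling endosomes, was the exception at 0.597 in the authors' deposited table. Alb, the other cargo of FcRn, was listed at 0 in the authors' deposited table.

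The wider family of 13 Fc receptor and Fc receptor-like genes held 7 positive, 3 negative and 3 at 0. Fcrl5 had 0.671, Fcrls, an Fc receptor-like gene of resident macrophages and microglia, had 0.598 and Fcrl1 had -0.511 in the authors' deposited table. Trim21, the gene of the cytosolic antibody receptor, stood at 0.0936 in the authors' deposited table. Fcer1a and Ms4a2, the other chains of the mast cell IgE receptor that uses Fcer1g, were both listed at 0 in the authors' deposited table. Among the ligands, the 6 symbols of IgG, IgM and kappa chain genes gave no row and were not analysed here, and the joining chain gene, listed as Igj, was at 0 in the authors' deposited table. Ptx3, a pentraxin gene, had 1.11 and Crp -0.0402 in the authors' deposited table. The exact value of Fcrl5 was shared by 1 other gene and that of Crp by 41. Levels were not analysed here, so whether such tied values rest on few reads was not tested.

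Of 16 genes known to regulate the receptors, 11 were positive, 5 were negative and none was at 0. Over all genes 40.4% were positive and 29.6% negative, with 6982 of the 23284 at 0. None of the 16 was at or past 0.5 in size, where 0.988% of all genes lay on the negative and 3.77% on the positive side. Ifngr1, a chain of the interferon-gamma receptor, was the highest at 0.430 and Cebpa the lowest at -0.448 in the authors' deposited table. Spi1, which encodes PU.1 and is listed as Sfpi1, had 0.0593 and Irf1 0.397 in the authors' deposited table. C5ar1, the C5a receptor that shifts the balance of activating and inhibitory receptors, stood at -0.304 in the authors' deposited table. Whether any of these regulators, PU.1 included, bears on the values of the receptor genes was not tested.

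**Figure D4:**
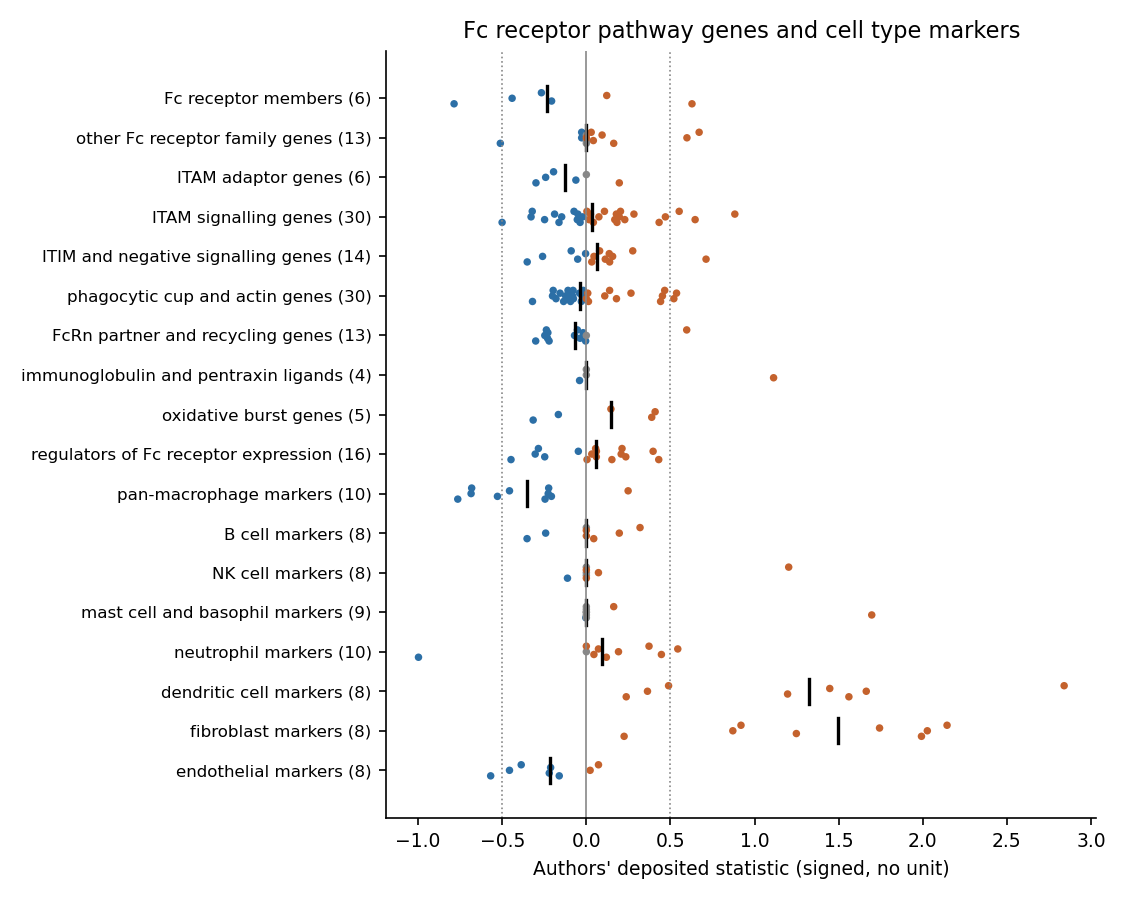
Authors' deposited statistic of every gene of the Fc receptor family, its pathway lists and the marker lists, 1 point per gene (blue negative, orange positive, grey at 0), with the number of genes in brackets and the median as a black bar; dotted lines mark -0.5 and 0.5. Of 10 pan-macrophage markers, 9 share the negative side with the activating receptors and 1 is positive, while dendritic cell and fibroblast markers lie to the right.

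Markers of several cell types shared a side with the receptors. Over all genes 29.6% were negative and 40.4% positive, the rest being at 0. Of 10 pan-macrophage markers 9 were negative, with a median of -0.351, and Lgals3 at -0.764 came close to Fcgr1 in the authors' deposited table. The 1 positive marker of that list was Csf1r, at 0.248. All 8 dendritic cell markers, from 0.237 to 2.84, and all 8 fibroblast markers, from 0.225 to 2.14, were positive, as were Fcgr2b and Fcgrt, in the authors' deposited table. Of 8 endothelial markers, from a cell type that also uses FcRn, 6 were negative and 2 positive, with a median of -0.216. They ran from -0.569 for Kdr to 0.0722 for Tek in the authors' deposited table. Medians of the B cell, NK cell, mast cell and neutrophil markers lay between 0 and 0.0954. The farthest genes were Kit at 1.70, Klrd1 at 1.20 and Mmp8 at -0.998 in the authors' deposited table, and they do not stand for their lists. Of 9 mast cell and basophil markers 6 were at 0, 2 positive and 1 negative. Of 8 NK cell markers 3 were at 0, 4 positive and 1 negative. Mmp8 was the 1 negative gene of 10 neutrophil markers, of which 8 were positive, with S100a8 highest at 0.544. The part of other cell types in the values of the receptors was not tested.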

How the data were processed

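RNA-seq of 2 libraries, 1 per population, was analysed from the single table deposited by the authors. Per the submitters' processing notes, CASAVA 1.8.2, TopHat and the mouse build mm10 were used. For the counting program, read length, strand handling and depth, nothing is given in the sources used here. The values used are 2 scores deposited by the authors: a signed statistic without a unit, and a ranking that matched the order of its size for 23284 of 23284 genes (tolerance 1e-06). The program behind the statistic is not stated, and it is not read as a fold change. A further 2 columns of values per library carry names that match no sample label and were not used, so levels and fold changes are not reported.

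The members and the gene lists were chosen with earlier results of these data known, and the lists support nothing on their own. Named genes were the members, in each list genes of size 0.5 or more and the highest and lowest, and the 2 protein-coding genes in the table on either side of a member; others in the text, such as Syk, Inpp5d, B2m, Spi1 and Pcp4l1, were named after their values were seen. Symbols were matched directly or by a single RefSeq synonym. Coordinates and transcripts are from GENCODE vM21 on GRCm38, the assembly of mm10, using the principal coding transcript of each gene. Coding sequences of Fcgr2b and Fcgr3 were aligned globally (match 2, mismatch -1, gap opening -5, gap extension -0.5), and exact windows were searched on both strands of all transcripts. The functions were tested on simulated data. The software was Biopython 1.88, SciPy 1.17.1, Matplotlib 3.10.9, pandas 2.3.3 and NumPy 2.4.6 under Python 3.11.15. Values of a few genes named by the rule are left out.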

Additional observations from a re-analysis of the deposited data

How the results depend on the processing

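No paired analysis was possible because only 1 library stands for either population, and for the same reason no library could be left out. The threshold of 0.5 decides the counts. At 0.25 the whole table held 2306 positive and 1085 negative genes, and at 1 it held 165 and 15, against 878 and 230. Members at or below the negative threshold numbered 3 at -0.25 and 0 at -1, and the 1 member at or above 0.5 became 0 at 1. The members' median of -0.237 was -0.159 as a mean and -0.267 without Fcgrt. When means replaced medians, the phagocytic cup list changed sign from -0.0352 to 0.0354 and the B cell list from 2.42e-06 to -0.00440, and the oxidative burst list moved from 0.146 to 0.0922, the ligand list from 0 to 0.268 and the mast cell list from 0 to 0.206. With genes at 0 left out, the median of all genes was 0.00512 and that of the ligand list 0.536. The other changes stayed inside the 95% binomial interval of each median, or within 1.5 times for counts. For lists of 6 or 8 genes, the members included, that interval runs from the lowest to the highest value. No mean or median of such a list could leave it, so for these lists it shows nothing about stability. For the lists of 4 and 5 genes no such interval exists, and any change was counted as a move. Counts of members with a promoter match were the same in the 150 bases before the start. Over all promoters the shares with a match were smaller there. They fell from 28.3% to 14.5% for the PU.1 core and from 8.3% to 4.09% for the interferon-gamma activated site. For the interferon-stimulated element the share fell from 3.44% to 1.59%.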
